A study of Rattus norvegicus with 42 samples.

Results

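The peaks described here were transcription start sites (TSSs) whose tag level was higher in the unloaded fast muscle than in its controls. In the slow muscle of the same rats, the mean over all unloaded libraries showed little or no rise. These peaks were selected on measured values, so their rise in unloading is a description and not a result. For each peak and muscle, the mean level of the 9 unloaded libraries was divided by the mean of the 3 control libraries after 1 CPM was added to both, and this quantity is called the unloaded ratio or rise. CPM are the tags of a peak divided by all tags in the peaks of the library and scaled to 1000000. A member peak had an unloaded ratio of at least 1.5 in EDL, less than 25% of rise in soleus, and a control level in soleus between 0.25 and 4 times that in EDL on the same CPM + 1 scale. Of the 9969 deposited peaks outside the mitochondrial genome, 1662 met the first condition, 994 the first 2, and 810 met all of them.

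The members just inside the EDL limit, chr5:152227560-152227708 and chr7:138365282-138365494, had unloaded ratios of 1.50026 and 1.50038. The peaks just outside it, at chr8:71719459-71719764 and chr9:120101041-120101074, had 1.49996 and 1.49972. At the soleus limit the last members had 1.24974 and 1.24579 and the first peaks left out had 1.25003 and 1.25019. At the limits on the control level, the closest members had soleus to EDL ratios of 3.94988 and 0.29131, and the closest peaks outside had 4.05628 and 0.15709. Members and peaks on either side of the first 2 limits thus differed by very little.

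Cap analysis of gene expression, CAGE, sequences the capped 5′ ends of RNAs, so that a tag marks the position where transcription began and a cluster of tags marks a promoter or another start site. The EDL (extensor digitorum longus) is a fast muscle that lifts the toes and works in short bouts, whereas the soleus is a slow postural muscle of the calf that carries body weight almost continuously. Hanging a rat by its tail takes the load off the hindlimbs, and muscles without load lose mass. The loss is usually greater in slow postural muscles than in fast ones, and renewed walking loads them again.

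The libraries came from 21 mature Wistar rats, 3 in each group. The controls were active animals, the D1, D3 and D7 groups had been unloaded for 1, 3 or 7 days by tail suspension, and the R1, R3 and R7 groups had walked again for 1, 3 or 7 days after 7 days of unloading. Both muscles of every rat were taken, which gave 42 libraries in 14 groups. The labels name no genetic change and no drug. Coordinates are 1-based positions in Rnor_6.0. No gene names come with the peaks, so they are named by position, and the identity of each muscle could not be checked against marker genes. In samples of whole muscle, fewer cells of a type and less RNA per cell cannot be told apart.

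Libraries held 1778712 to 23103236 tags, and 63.8% to 90.4% of the tags lay in the deposited peaks. The EDL libraries of animals 24 and 25 at D1 were shallow, with 1517246 and 2253394 tags in peaks. In recovery, the EDL libraries of animal 20 at R1 and animal 12 at R7 were also shallow, with 2229492 and 2430473. The recovering soleus libraries held 3972844 to 15973060 tags in peaks, so low EDL values in recovery rest on fewer tags. All controls of both muscles were sequenced in lane 1 and the unloaded EDL libraries in lanes 2, 3 and 6, so the change from control to unloading and the change of lane cannot be told apart in EDL. Against the same controls, the median ratio of the members was 1.78 in the 3 unloaded EDL libraries of lane 2, 1.602 in those of lane 3 and 1.83 in those of lane 6, and over all peaks it was 1.08, 1.09 and 1.14. The selection used these libraries, so the higher values of the members in each lane follow from it and nothing is read from them.

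The rise of the member peaks in unloaded EDL was modest for most of them and large for a few. The median unloaded ratio in EDL was 1.71, compared with 1.11 over all peaks. A ratio of at least 2 was found for 206 members, of at least 3 for 64 and of at least 5 for 18, and the highest was 36.4. In unloaded soleus the median ratio of the same peaks was 1.00. The soleus limit applied to the mean of 9 libraries, so a single phase could exceed it. All 3 soleus D7 libraries lay above all 3 soleus controls in 68 members (8.395%; all peaks 17.95%). The selection used these libraries, so nothing is read from the difference. Members were peaks of low to middle level, with a median of 4.001 CPM in control EDL and 8.58 CPM in unloaded EDL, and 346 of them reached 10 CPM in unloaded EDL.

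Different members peaked at different times of unloading. D1 had the highest phase mean in 212 members (26.2%), D3 in 344 (42.5%) and D7 in 254 (31.4%). Over all peaks these shares were 17.9%, 40.7% and 41.4%, so that D3 was about as frequent among members as among all peaks. Relative to control, the members had a median ratio of 1.57 at D1, and later in unloading of 1.87 (D3) and 1.79 (D7). Over all peaks the 3 medians were 0.95, 1.17 and 1.19. The members' share of all tags in peaks was 1.36% ± 0.146 (SD, n = 3) in control EDL, 2.31% ± 0.522 at D1, 3.105% ± 0.545 at D3 and 3.00% ± 0.630 at D7. Single libraries ranged from 1.246% to 1.52% in the controls and from 1.78% to 3.655% in the 9 unloaded libraries, and these ranges did not overlap. The members were selected on these same libraries, so the higher share follows from the selection and nothing is read from it.

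The median of the 9 unloaded EDL libraries lay above every EDL control in 744 of the 810 members, and in 34 members 1 library held more than 50% of the unloaded EDL signal. The selection used these libraries and the 744 were not set beside all peaks, so nothing is read from that count. Without its own highest unloaded library, which can only lower the ratio, 479 members (59.1%) had an unloaded ratio of at least 1.5. All 9 unloaded libraries lay above all 3 controls in 140 members (17.3%), and in 3.65% of all peaks; the selection used these libraries, so nothing is read from the difference. The libraries that most often gave the highest value were those of animal 3 at D7 (188 members), animal 26 at D1 (151) and animal 10 at D3 (143), whereas the D3 library of animal 11 did so in 18. At D1 the medians of the shallow libraries of animals 24 and 25 lay 0.34 and 0.39 above control on the log2(CPM + 1) scale and that of animal 26 lay 0.98 above it. In the same libraries the medians of all peaks were -0.35, -0.36 and 0.24. The lower values of animals 24 and 25 were thus shared by all peaks and are not read as a smaller rise of the members.

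**Figure D1:**
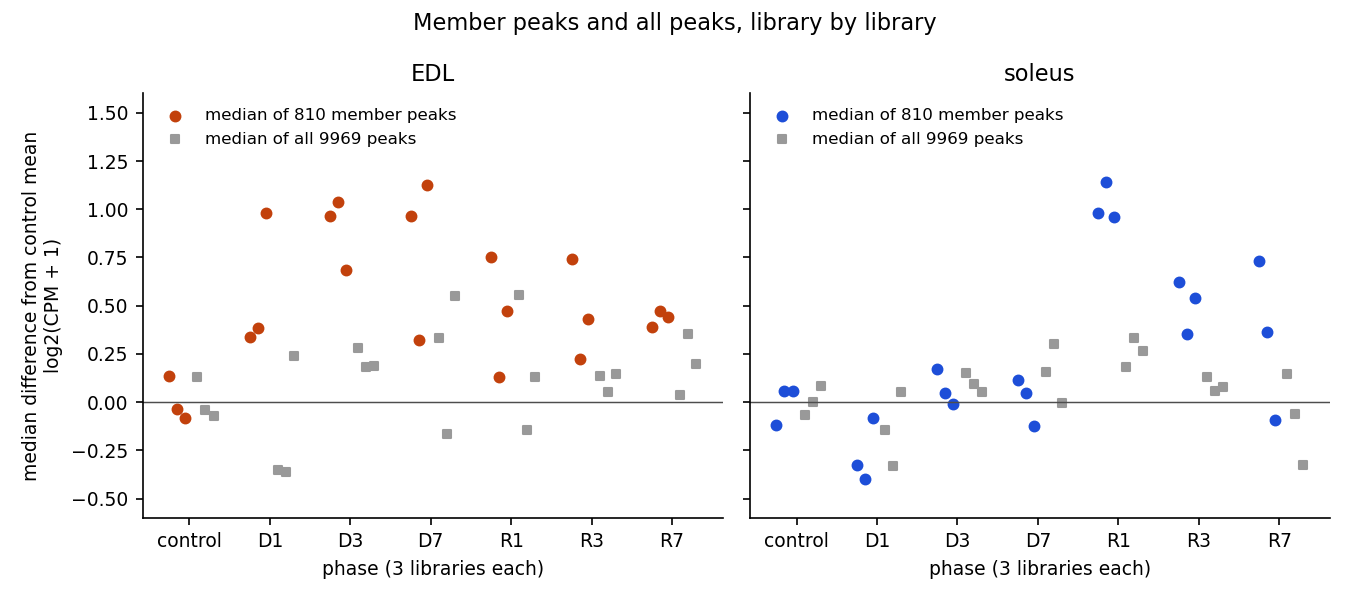
Median difference from the mean of the muscle's controls, on the log2(CPM + 1) scale, for the 810 member peaks (circles) and all 9969 peaks (grey squares), 1 point per library, in 7 phases of EDL (left) and soleus (right). In EDL the member medians lie above the controls in every unloaded library, by 0.32 to 1.13. In recovering EDL they are at 0.13 to 0.75, and those of all peaks at -0.15 to 0.56. In soleus the member medians stay between -0.40 and 0.17 in unloading. At R1 in soleus they reach 0.96 to 1.14, and those of all peaks 0.18 to 0.33. The control and unloaded libraries took part in the selection.

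Among members with at least 10 CPM in unloaded EDL, the largest rise was at chr2:187692170-187692456 on the plus strand, with an unloaded ratio of 36.4. Its level in control EDL was 0.935, 0.698 and 2.21 CPM in the 3 animals. It reached 25.05, 34.2 and 18.3 CPM at D1, 147.9, 263.9 and 21.1 CPM at D3, and 73.1, 132.0 and 22.7 CPM at D7. All unloaded libraries were above all controls, and the libraries of animal 11 at D3 and animal 3 at D7 were the lowest of their phases. In soleus it was between 1.02 and 6.36 CPM in every unloaded library, against 3.08 to 8.35 CPM in the controls. In recovering EDL it was 3.88, 51.1 and 23.3 CPM at R1, 18.95, 15.45 and 12.2 CPM at R3 and 2.47, 1.22 and 1.76 CPM at R7, so that the R7 libraries were within or close to the control range. In soleus it stood at 33.7, 18.4 and 22.85 CPM at R1 and 71.3, 39.5 and 36.3 CPM at R7, above every soleus control.

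The second largest rise, 24.6, was at chr1:254735508-254735753 on the minus strand. Control EDL had 18.5, 3.14 and 5.22 CPM. The unloaded libraries had 90.95, 437.6 and 141.2 CPM at D1, 210.7, 644.7 and 111.3 CPM at D3 and 245.4, 200.4 and 115.7 CPM at D7. Every unloaded library exceeded every control, and in recovery the level was 1.42 to 38.2 CPM, with 8 of the 9 libraries within or under the control range. In soleus the same peak lay between 0.408 and 7.02 CPM in unloading, and its controls had 25.65, 3.35 and 14.1 CPM, so all unloaded libraries were under the higher 2 controls. On the first day of reloading it stood at 509.2, 997.9 and 541.9 CPM in soleus, 44.5 times the control on the CPM + 1 scale.

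A peak of high level, chr16:6962574-6963118 on the plus strand, had an unloaded ratio of 8.92. Its EDL level was 198.3, 156.4 and 170.4 CPM in the controls, 563.5, 1308 and 929.6 CPM at D1, 2323, 3657 and 614.1 CPM at D3 and 2115, 1812 and 796.9 CPM at D7. Control and unloaded libraries did not overlap. Unloaded soleus libraries held 49.4 to 301.8 CPM and the soleus controls 167.6 to 280.8 CPM, so these overlapped. In recovering EDL the peak had 485.6, 860.3 and 521.5 CPM at R1, 1237, 228.6 and 373.2 CPM at R3 and 165.0, 67.4 and 205.1 CPM at R7. All R1 and R3 libraries were thus above all EDL controls, unlike at the chromosome 1 peak. In soleus it had 3208, 4203 and 2310 CPM at R1, 15.7 times the control on the CPM + 1 scale, and 1088, 922.1 and 902.4 CPM at R7.

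The other 5 members with the largest rises were chr8:117172660-117172863 (11.35), chr10:12997855-12998021 (11.2), chr12:13108911-13109087 (9.81), chr8:128704884-128708279 (9.28) and chr1:104152972-104153108 (8.79). At chr8:117172660-117172863 and chr12:13108911-13109087 the EDL controls were at 0 to 0.698 CPM, near the level of single tags. The peak at chr12:13108911-13109087 was highest at D1, with 14.5, 19.1 and 12.99 CPM, and at D7 it was at 0 in 1 library and at 4.86 and 8.07 CPM in the others. The peak at chr8:128704884-128708279 was wide and uneven among animals: its D1 libraries held 19.1, 168.2 and 33.9 CPM, against 1.61 to 4.86 CPM in the controls. Over the 5 peaks the unloaded means in EDL were 10.9 to 54.5 CPM and the means of the recovery phases 0.164 to 9.44 CPM. In soleus at R1 the ratios to control were 2.47 at the first of them, 40.9 at the second and 20.5 at chr8:128704884-128708279, and 1.055 at chr12:13108911-13109087, which stayed near its soleus control.

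The 8 members with the highest level in unloaded EDL showed rises from 1.504 to 8.92. The highest of all was chrX:159157881-159158453 on the plus strand, which had 695.3, 552.7 and 721.5 CPM in control EDL. The D1 libraries had 826.5, 620.4 and 1532 CPM, those of D3 2276, 2017 and 2658 CPM and those of D7 2760, 1570 and 2314 CPM. The D3 and D7 libraries were all above the controls and 1 of the D1 libraries was not. In soleus the control level was higher, 2228, 1549 and 2562 CPM, and at D3 it was 882.9, 1071 and 1184 CPM, under every soleus control. In control animals soleus exceeded EDL 3.215 times on the CPM + 1 scale, and at D3 every EDL library exceeded every soleus library.

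The other members of high level differed in how even they were among animals. The peak chr17:15656466-15656761 had a narrow spread in the controls, with 593.9, 646.3 and 653.8 CPM in control EDL, 796.8 to 839.0 CPM at D1, 681.4 to 857.8 CPM at D3 and 1033 to 1630 CPM at D7. The 9382-nt span chr3:53633317-53642698 had 452.1 to 497.5 CPM in the controls and 616.8, 646.6 and 1556 CPM at D3 but 337.7 to 839.2 CPM at D1, and its most used position held 1.47% of its unloaded EDL tags. At chr10:15603565-15603787 the controls themselves ranged from 414.3 to 1032 CPM and overlapped the unloaded libraries, which ranged from 593.6 to 1683 CPM. The remaining ones, chr9:43116055-43116487, chr1:277181159-277181495 and chr4:56710804-56711645, had unloaded ratios of 1.96, 1.75 and 3.17.

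**Figure D2:**
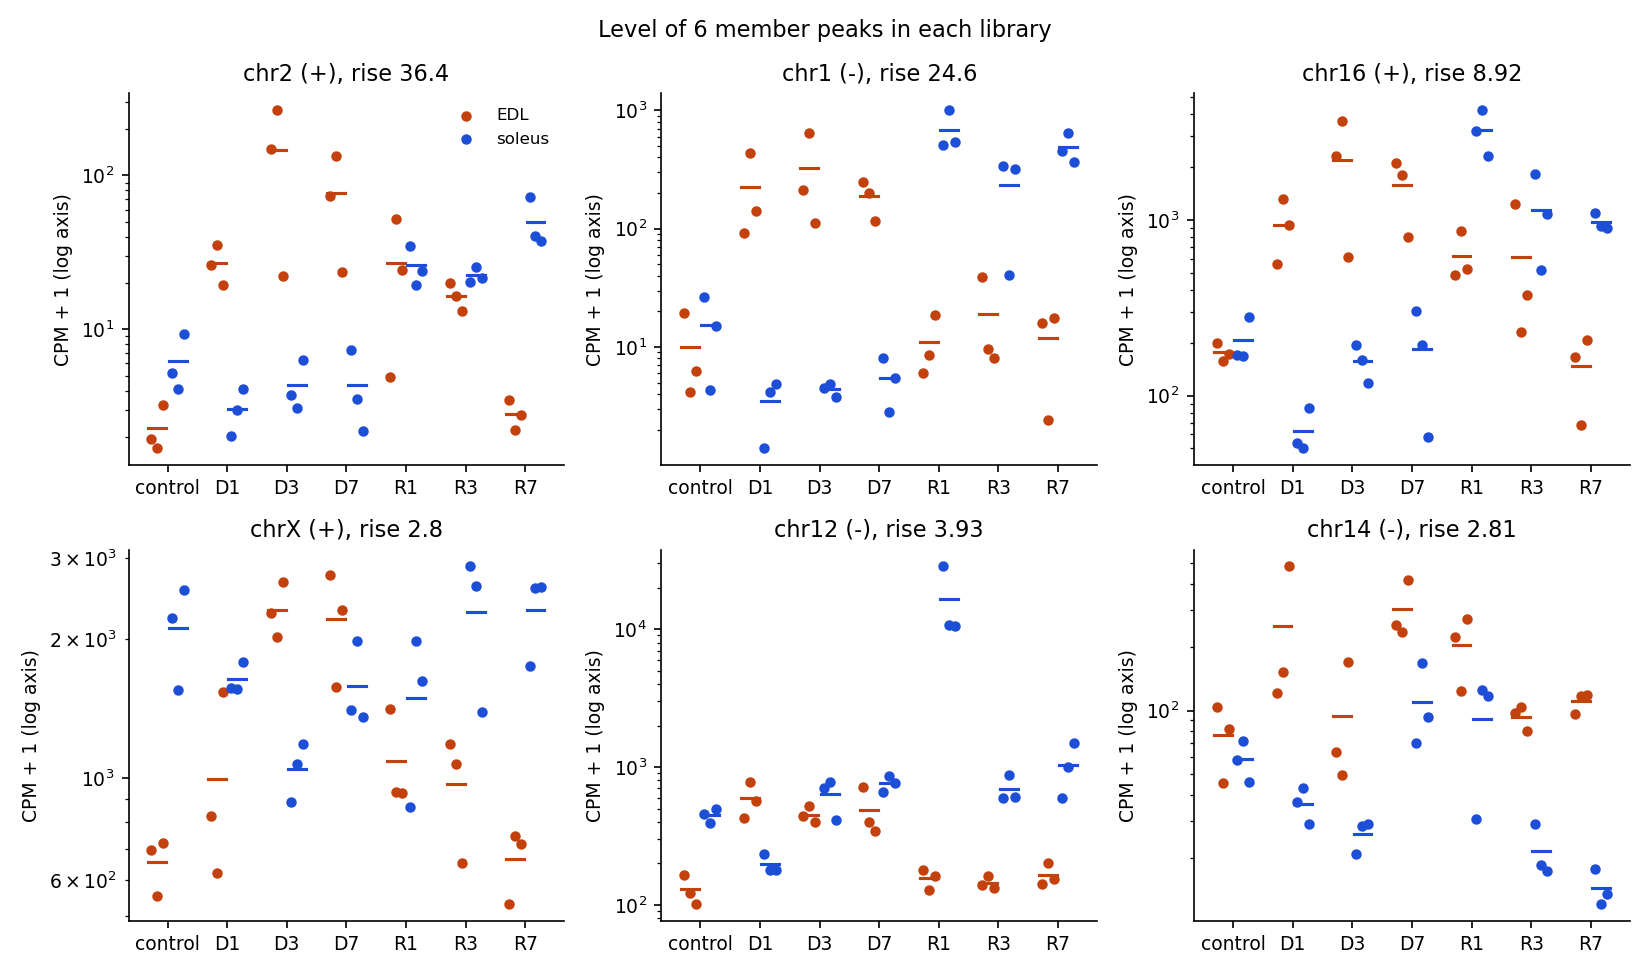
Level of 6 member peaks in each of the 42 libraries (CPM + 1, log axis), EDL in orange and soleus in blue, with a bar at the mean of the 3 animals of a group. The peaks on chromosomes 2, 1 and 16 are high in EDL during unloading and in soleus at R1, the chromosome X peak is high in EDL at D3 and D7, the chromosome 12 peak reaches 10535 to 28549 CPM in soleus at R1, and the chromosome 14 peak is higher in EDL than in soleus at R3 and R7.

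In recovering EDL the typical member stood about midway between its control and its unloaded level. Its ratio to control had a median of 1.39 at R1, and then of 1.45 (R3) and 1.35 (R7). Over all peaks the 3 medians were 1.15, 1.09 and 1.15. These ratios share the EDL controls with the selection and set lanes 4, 5 and 6 against lane 1, so recovery and lane cannot be told apart in them, and they are given as a description. Placed on a scale from 0 at the control mean to 1 at the unloaded mean, the median member had 0.49 at R1, 0.54 at R3 and 0.45 at R7. All 3 R1 libraries were above all 3 controls in 203 members (25.1%), where 15.3% of all peaks did the same. For R3 the count was 185 (22.8%, all peaks 13.9%) and for R7 it was 220 (27.2%, all peaks 14.9%). Members held 2.19% ± 0.3004 of the tags in R1 libraries, 2.33% ± 0.769 in those of R3 and 1.86% ± 0.0795 in those of R7 (SD, n = 3 each).

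The ratios in recovery were lowest among the members with the largest rise. The 64 members with an unloaded ratio of at least 3 had median ratios to control of 5.855 at D1, 3.75 at D3 and 3.62 at D7, and of 1.30, 1.29 and 1.14 at R1, R3 and R7. The 604 members with an unloaded ratio under 2 had 1.425, 1.76 and 1.73 in unloading and 1.41, 1.502 and 1.40 in recovery. At R7 a ratio of at least 1.5 was found in 6 of the 64 (9.375%) and in 250 of the 604 (41.4%). No test was made of this difference, since the unloaded ratio that forms the groups shares its controls with the recovery ratio.

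**Figure D3:**
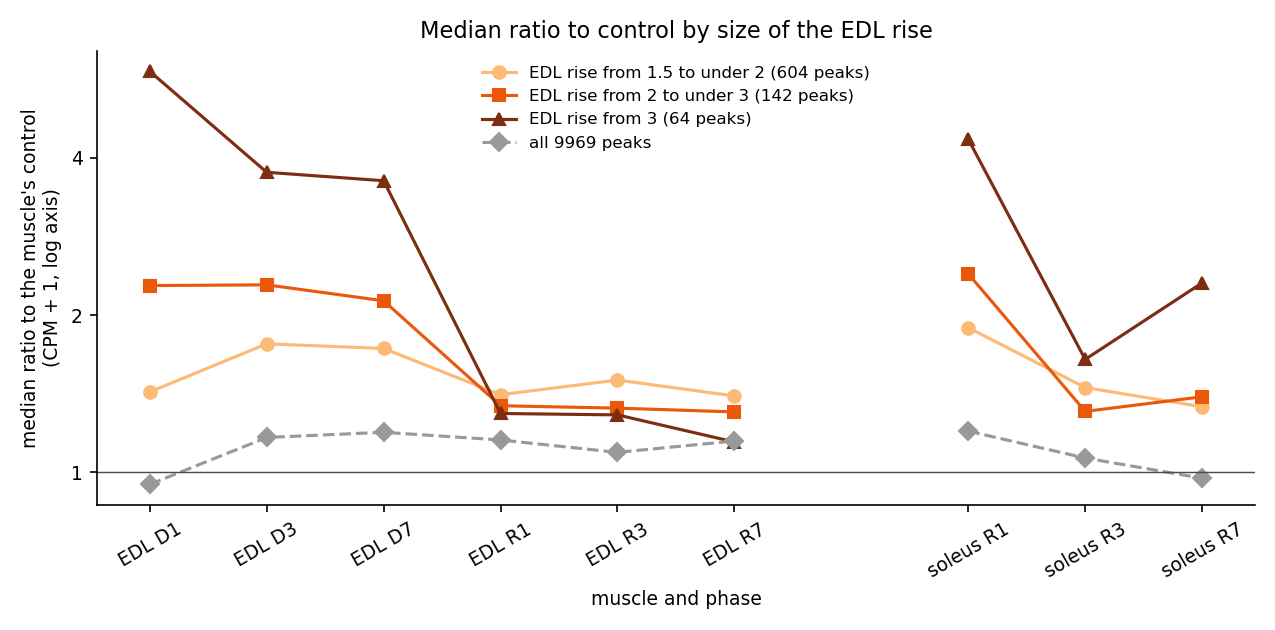
Median ratio to the muscle's control (CPM + 1, log axis) by phase for members grouped by their unloaded ratio in EDL (604 peaks under 2, 142 from 2 to under 3, 64 of at least 3) and for all 9969 peaks (grey, dashed). The lines of the 3 groups lie far apart in unloaded EDL, between 1.14 and 1.502 in recovering EDL, and apart again in soleus at R1, at 1.89, 2.40 and 4.34.

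Tests were possible between recovery phases, whose 18 libraries had no part in the selection. They were made with edgeR's quasi-likelihood test over the 9922 peaks that passed a filter on low counts, 808 of the 810 members among them, and calls needed an adjusted p (Benjamini-Hochberg) under 0.05 and a change of more than 2.38-fold in either direction. All EDL R1 libraries were in lane 4 and those of R3 and R7 in lanes 5 and 6. Phase and lane therefore cannot be told apart in the EDL comparisons with R1. In EDL no member was called between R1 and R3, R3 and R7 or R1 and R7. Of all tested peaks, 0%, 0% and 0.0101% were called. At an unadjusted p under 0.05 there were 69, 66 and 60 members, and 493, 438 and 475 of all peaks, and DESeq2 called 3, 1 and 7 members. Without the EDL R1 library of animal 18, edgeR called 1 member from R3 to R7 and 1 from R1 to R7. For DESeq2 and for this refit no share of all peaks is given here, so nothing about the members is read from their counts. The median log2 change of the members was 0.10 from R1 to R3, -0.16 from R3 to R7 and -0.04 from R1 to R7, against -0.04, 0.04 and 0.01 over all peaks.

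The members with the lowest recovery level against control, among those with at least 10 CPM in unloaded EDL, were headed by peaks of chromosome 4. At chr4:144192782-144193107 the EDL controls had 97.8, 60.4 and 62.2 CPM, the unloaded libraries 104.8 to 358.5 CPM and the 9 recovery libraries 49.3 to 89.9 CPM, so recovery lay within or under the control range in all animals. At chr4:56710804-56711645 the controls had 255.7, 149.8 and 144.5 CPM, the unloaded libraries 254.4 to 949.4 CPM and the recovery libraries 56.8 to 279.2 CPM. The other 3 were chr4:56728729-56728875, chr4:56737879-56738725 and chr3:152810260-152810810. The means of their recovery phases were 1.155 to 8.30 CPM and their control means 1.80 to 8.81 CPM.

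At the other end, 3 of the 5 members with the highest recovery level had it in 1 library. At chr17:43632282-43632628 the EDL R3 libraries held 247.1, 6.55 and 13.9 CPM, at chr17:43633598-43633780 they held 278.5, 2.88 and 11.15 CPM, and at chr2:193863139-193863277 they held 363.9, 27.2 and 52.05 CPM. The high value was that of animal 4 each time. The peak chr1:215744454-215745002 was higher in all recovery animals: it had 24.6, 20.95 and 23.3 CPM in the controls, 38.6 to 56.3 CPM at R1, 59.4 to 165.4 CPM at R3 and 41.8 to 83.1 CPM at R7. Its recovery libraries did not overlap the controls. The last of the 5 was the chromosome 2 peak with the largest rise, described above.

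In soleus, where the selection limited the members' mean rise over unloading, their median ratio to control was higher at R1 than at R3 or R7. All soleus controls were in lane 1, all R1 libraries in lane 4 and those of R3 and R7 in lanes 4, 5 and 6, so recovery and lane cannot be told apart in the ratios to control. Against the soleus control the members had a median ratio of 2.05 at R1, 1.45 at R3 and 1.39 at R7. Over all peaks it was 1.20, 1.065 and 0.97. A ratio of at least 2 at R1 was found for 413 members (51.0%; all peaks 23.4%), of at least 5 for 125 (15.4%; all peaks 6.56%) and of at least 20 for 26 (3.21%; all peaks 1.16%). All 3 soleus R1 libraries were above all 3 soleus controls in 503 members (62.1%), against 38.2% of all peaks. At R3 this held for 279 (34.4%; all peaks 18.9%) and at R7 for 127 (15.7%; all peaks 6.87%). The soleus controls took part in the selection, so these are descriptions.

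The members took up 2.67% ± 0.233 of the tags in control soleus, 2.14% ± 0.262 at D1 and 2.765% ± 0.232 at D7. At R1 their share was 10.7%, 7.68% and 6.69% in the 3 animals, above every other library of either muscle. It stood at 4.035% ± 0.678 at R3 and 3.99% ± 0.681 at R7 (SD, n = 3 each). One soleus peak, chr12:23840390-23841131 on the minus strand, held 28549, 10635 and 10535 CPM at R1. It had 391.4 to 492.8 CPM in the soleus controls, and in EDL it had 164.4, 120.8 and 100.8 CPM in the controls and 341.1 to 782.8 CPM in unloading. In unloaded soleus it had 178.3 to 233.3 CPM at D1, 414.9 to 782.1 CPM at D3 and 653.4 to 858.9 CPM at D7. All soleus D7 libraries were thus above every soleus control, and the low D1 values kept the unloaded mean under the limit.

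In soleus more members were called lower than higher after R1. From R1 to R3, 137 of 808 members were called lower (16.96%) and 19 higher (2.35%) by edgeR's quasi-likelihood test, against 8.86% and 3.4% of all tested peaks. From R1 to R7, 125 were called lower (15.5%) and 50 higher (6.19%), against 9.3% and 5.82%. The share of lower calls was above the background in both intervals, and that of higher calls was below it from R1 to R3 and close to it from R1 to R7. Between R3 and R7 no member was called (0% of all peaks; 60 members and 462 of all peaks at an unadjusted p under 0.05; DESeq2 0 members), and 3 were without the soleus R7 library of animal 19. The share of all peaks in that refit is not given here, so nothing is read from the 3. All R1 libraries shared lane 4 with 1 soleus R3 library and no R7 library. From R1 to R7, phase and lane therefore cannot be told apart within soleus. With lane as a term 37 members (4.58%; all peaks 1.79%) were called lower and 11 (1.36%; all peaks 0.998%) higher from R1 to R3. From R1 to R7 that fit called 5 members (0.619%; all peaks 0.242%) lower and 4 (0.495%; all peaks 0.3225%) higher, too few to compare the shares. Without the soleus R1 library of animal 18, 86 were called lower (10.6%; all peaks 5.74%) and 8 higher (0.990%; all peaks 2.285%) from R1 to R3 and 31 higher (3.84%; all peaks 5.70%) from R1 to R7. Without that of animal 20 the higher calls were 11 (all peaks 2.36%) and 32 (all peaks 3.97%), and without the soleus R3 library of animal 4 they were 8 from R1 to R3 (all peaks 2.45%). With column totals in place of the TMM scaling of edgeR, the higher share of the calls from R1 to R7 went from 38.5% to 23.55% over all peaks, with 32 members higher (3.96%; all peaks 4.16%) and 181 lower (22.4%; all peaks 13.5%).

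The members lower in soleus after R1 with the smallest adjusted p were the same 3 peaks for R3 and R7. At chr6:135050360-135050425 soleus had 3212, 872.6 and 785.4 CPM at R1, 48.2, 30.7 and 41.6 CPM at R3 and 36.2, 57.6 and 48.6 CPM at R7. The log2 fold change was -5.22 ± 0.53 (SE) from R1 to R3, with an adjusted p (edgeR) of 2.48e-05, and -4.15 without the R1 library of animal 18. EDL stayed at 9.56 to 21.2 CPM in all recovery libraries. At chr6:60151359-60151530 soleus fell from 132.7, 64.9 and 91.1 CPM to between 4.42 and 6.335 CPM at R3, and at chr16:7103498-7103665 from 150.6, 104.7 and 92.5 CPM to 12.3 to 14.5 CPM. In each of these peaks the R1 libraries stood far above all others and did not overlap them.

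The members higher in soleus after R1 with the smallest adjusted p were low there at R1. At chr10:53711560-53712069 soleus had 36.4, 34.7 and 15.8 CPM in the controls, 2.40, 0.547 and 2.755 CPM at R1, 25.5, 20.4 and 22.1 CPM at R3 and 22.2, 34.5 and 21.9 CPM at R7. The change from R1 to R3 was 3.69 ± 0.61 (log2, SE; adjusted p from edgeR 6.23e-04). At chrX:106749559-106749817 soleus had 1.80, 3.465 and 5.07 CPM at R1 and 18.9 to 64.4 CPM at R3, and at chr16:2142254-2142574 it had 1.63, 2.735 and 3.38 CPM and 7.62 to 18.1 CPM. All R3 libraries exceeded all R1 libraries in these 3 peaks. Not all higher calls were of this kind: chr1:215744454-215745002 was called higher at R3 and R7 than at R1 and had 34.3 to 44.4 CPM in soleus at R1.

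At equal times of recovery, members were called lower in EDL than in soleus more often than higher. At R1, 309 of 808 members (38.2%) were called lower in EDL and 29 (3.59%) higher by edgeR's quasi-likelihood test, while 17.7% and 13.7% of all tested peaks were. At R3 the calls were 54 lower (6.68%) and 9 higher (1.11%), with 4.5% and 6.17% of all peaks, and at R7 they were 184 lower (22.8%) and 13 higher (1.61%), with 7.32% and 7.6%. Among the 9152 tested peaks inside the same limits on the control level, 16.2%, 1.65% and 4.37% were called lower. The members had a median log2 difference of -1.06 (R1), -0.58 (R3) and -0.85 (R7), and that of all peaks -0.02, -0.08 and 0.01.

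A difference in this direction was also present in the control libraries. These took part in the selection, which favours a low EDL control and a high soleus control, so the control values are a description. In control animals the members had a median difference, EDL minus soleus, of -0.89 on the log2(CPM + 1) scale, with 757 of 810 (93.5%) lower, whereas all peaks had a median of -0.39. On this scale, which has no TMM scaling, the medians were -1.38 at R1, -0.77 at R3 and -0.87 at R7 for members, and -0.45, -0.35 and -0.09 for all peaks. At R3 and R7 the member median itself was no further from 0 than in the controls. The median of all peaks moved as well, from -0.39 in the controls to -0.09 at R7. Relative to all peaks the members were therefore further out at R7 than in the controls, and no test of this was made. With column totals in place of TMM factors, the higher share of the calls among all peaks went from 43.6% to 26% at R1 and from 57.8% to 43.2% at R3, and the members called lower numbered 426 (52.7%; all peaks 25.6%) at R1, 116 (14.4%; all peaks 6.63%) at R3 and 220 (27.2%; all peaks 8.12%) at R7. That scaling moved the median log2 difference of all peaks at R1 from -0.02 to -0.47, and the members' median relative to it was -1.04 with TMM and -1.06 without.

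The count at R3 leaned on single libraries. Without the EDL library of animal 4, 120 members (14.85%; all peaks 6.165%) were called lower in EDL. Without that of animal 5 there were 33 (4.08%; all peaks 3.38%), and without that of animal 16 there were 28 (3.465%; all peaks 3.52%). Without the soleus library of animal 4 there were 31 (3.84%; all peaks 3.54%), and with lane as a term 33 (4.08%; all peaks 3.87%). In the last 4 of these fits the share of the members was close to that of all peaks, and nothing about the members is read from the lower calls at R3. At R7 the lower calls numbered 116 (14.4%; all peaks 5.14%) without the EDL library of animal 13. The counts at R1 ranged from 263 to 331 whichever library was left out (all peaks 14.5% to 18.4%).

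The smallest adjusted p at R1 among members lower in EDL belonged to chr13:100315919-100316707, chr12:23840390-23841131 and chr18:70924631-70924785. At chr13:100315919-100316707 EDL had 0.114, 0 and 0.293 CPM and soleus 36.2, 25.8 and 18.4 CPM, a log2 difference of -6.83 ± 0.58 (SE; adjusted p from edgeR 3.09e-07) that was -7.745 without the EDL library of animal 21. At chr12:23840390-23841131 EDL had 178.4, 127.8 and 160.6 CPM, against the soleus R1 level given above, and the difference was -6.27 ± 0.55 (adjusted p from edgeR 4.07e-07), and -5.54 without the soleus library of animal 18. At chr18:70924631-70924785 EDL had 0.449 to 0.585 CPM and soleus 99.8, 51.8 and 37.1 CPM. The peaks on chromosomes 13 and 18 were low in EDL at every phase, and their unloaded ratios of 1.88 and 1.52 rested on 0 to 2.92 CPM.

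At R3 and R7 the members lower in EDL by the smallest adjusted p included chr5:58393705-58394001, which had no tag in EDL at R3 and 2.36, 2.76 and 3.51 CPM in soleus. Counted against a floor of 3 tags over the group, soleus was at least 10.2-fold higher. The next were chr2:80293010-80293269, with 24.1, 15.97 and 16.2 CPM in EDL and 122.9, 69.55 and 49.7 CPM in soleus at R3, and chr1:259596110-259596299, with 0.786 to 1.30 CPM and 4.88 to 10.6 CPM. Their differences were -1.78 ± 0.31 and -2.68 ± 0.48 (log2, SE; adjusted p from edgeR 6.13e-04 and 8.03e-04). At chr3:82855979-82856175 EDL had 3.29, 2.645 and 3.11 CPM at R7 and soleus 34.65, 46.65 and 73.25 CPM, a log2 difference of -4.06 ± 0.46 (SE; adjusted p from edgeR 1.12e-05). At chr1:80835583-80835801 it was -2.87 ± 0.39 and at chr5:58484831-58485314 -2.39 ± 0.33. The rises of these peaks in unloaded EDL were 5.40, 4.575 and 3.15 for the 3 of R7, and 1.57, 3.48 and 1.85 for the 3 of R3.

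Few members were higher in EDL than in soleus in recovery, and the same sites recurred. Neighbouring peaks on the minus strand of chromosome 14, at chr14:106248318-106248453 and chr14:106248483-106249067, were called higher in EDL at R1, R3 and R7. The first had 76.8, 61.45 and 59.8 CPM in EDL and 5.91, 16.6 and 10.9 CPM in soleus at R1, and 39.5, 40.5 and 39.45 CPM against 3.86, 3.52 and 2.77 CPM at R7, a difference of 3.67 ± 0.32 (log2, SE; adjusted p from edgeR 1.26e-06). The second had 95.9, 116.6 and 117.0 CPM against 16.7, 11.15 and 12.6 CPM at R7. At chr12:44520227-44520361 EDL had 3.72 to 8.38 CPM at R3 and soleus 0.0673 to 0.152 CPM, near the level of single tags. At R1 chr9:83832988-83833147 was also higher in EDL, with 10.73, 8.52 and 10.24 CPM against 0.0856, 0 and 0.438 CPM in soleus. Its log2 difference of 6.03 ± 0.83 (SE) rests on a few soleus tags and was 5.525 to 7.735 with single libraries left out, the highest without the soleus library of animal 21. At chr10:53711560-53712069 the difference at R1 was 6.35 ± 0.68 (log2, SE), with soleus at 0.547 to 2.755 CPM, and single omissions gave 5.90 to 6.70.

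The change between recovery phases was also compared between the muscles, by an interaction term in edgeR that was added after the data were seen. Relative to EDL, soleus changed downward from R1 to R3 in 45 members (5.57%; all peaks 1.88%) and upward in 4 (0.495%; all peaks 0.665%). From R1 to R7 it changed downward in 47 (5.82%; all peaks 2.67%) and upward in 19 (2.35%; all peaks 2.37%). With the rat as a block the 4 were 2 (0.2475%, all peaks 0.796%), and with lane as a term the 45 were 11 (1.36%; all peaks 0.343%), the 4 were 1 (0.124%; all peaks 0.111%) and the 47 were 30 (3.71%; all peaks 1.63%). With column totals the higher share of the calls for R7 against R1 went from 47.0% to 32.5% over all peaks.

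The numbers of calls for this difference moved by more than 1.5 times when single libraries were left out, and so did the share over all peaks in many of these refits. The 45 became 18 (2.23%, all peaks 0.7045%) without the soleus R1 library of animal 18. They became 27 (3.34%, all peaks 1.03%) and 25 (3.09%, all peaks 0.9455%) without the EDL R1 libraries of animals 20 and 21. Without the EDL R3 libraries of animals 4, 5 and 16 there were 28 (3.465%, all peaks 0.905%), 23 (2.85%, all peaks 1.03%) and 29 (3.59%, all peaks 1.04%). Without the soleus R3 libraries of animals 4 and 16 there were 23 (2.85%, all peaks 0.885%) and 28 (3.465%, all peaks 1.02%). In each of these 8 refits the share of the members was above that of all peaks. The 47 became 28 (3.465%, all peaks 1.64%) and 26 (3.22%, all peaks 1.36%) without the EDL R1 libraries of animals 20 and 21. Without the EDL R7 libraries of animals 13 and 19 there were 26 (3.22%, all peaks 1.43%) and 23 (2.85%, all peaks 1.41%). Without the soleus R1 library of animal 18 there were 27 (3.34%, all peaks 1.33%), and without the soleus R7 library of animal 13 there were 28 (3.465%, all peaks 1.64%). The share of the members was again above that of all peaks in these 6 refits. In the same 6 the upward calls from R1 to R7 numbered 9 to 11 (1.11% to 1.36%, all peaks 1.17% to 1.47%), and in 10 refits those from R1 to R3 numbered 1 or 2 (0.124% or 0.2475%, all peaks 0.161% to 0.453%).

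**Figure D4:**
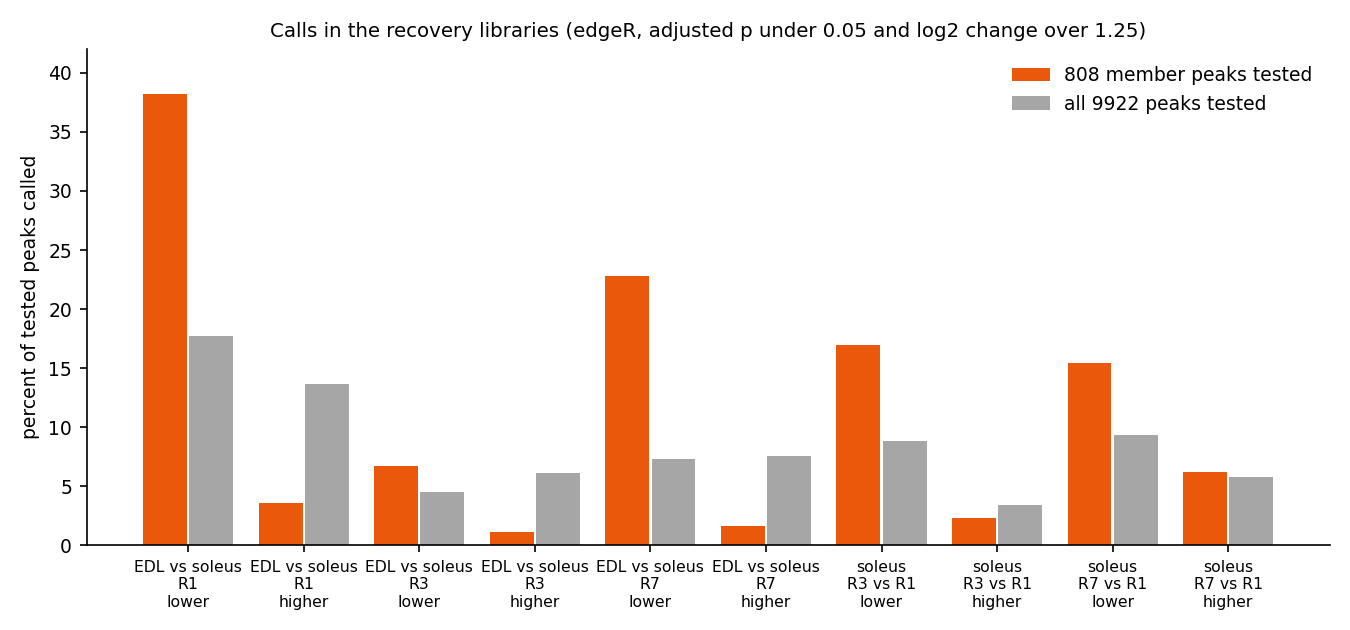
Percent of tested peaks called lower or higher between EDL and soleus at R1, R3 and R7 and between soleus phases, for the 808 tested members (orange) and all 9922 tested peaks (grey), by edgeR with the thresholds in the title. For lower calls between the muscles the members stand at 38.2% against 17.7% at R1 and at 22.8% against 7.32% at R7, and their excess at R3 (6.68% against 4.5%) was not seen in every refit. For higher calls they lie under the background except in soleus R7 against R1.

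Some members stood next to one another. When same-strand members with gaps of at most 10000 nt were joined, the 810 formed 701 runs, and 174 lay in a run of 2 or more. Peaks of a run may be starts of the same transcript unit and are not independent. The largest run, chr4:56710804-56738725 (plus strand), held 14 members and no other peak. Summed over its members, EDL had 207.5 ± 64.7 CPM in the controls (SD, n = 3), 857.1 ± 407.7 CPM at D1, 619.7 ± 183.9 CPM at D3 and 666.9 ± 273.3 CPM at D7, and then 160.4 ± 105.8 CPM at R1. The 14 had ratios to control of 1.91 to 8.78 at D1 and of 0.59 to 1.23 at R1. The selection required a rise of every member over unloading, so nothing is read from their agreement there. The same holds for the unloaded EDL levels of the other runs.

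In soleus the chromosome 4 run behaved differently. It was lower than control at D1, 226.1 ± 55.2 against 586.0 ± 158.7 CPM, and at R1 it reached 5497, 2223 and 1465 CPM in single animals. All 14 members were called lower in EDL than in soleus at R1 (edgeR; all peaks 17.7%), and 11 were called lower in soleus at R3 than at R1 (all peaks 8.86%). Between the muscles none of the 14 was called at R3, where the log2 differences ranged from -2.73 to 0.60, and 5 were called lower in EDL at R7 (all peaks 7.32%).

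The run chrX:159157881-159172485 (plus strand), 6 members of 6 peaks, had another course. Its summed EDL level was 746.8 ± 85.2 CPM in the controls, 2599 ± 331.8 CPM at D3, 2517 ± 624.5 CPM at D7, 1247 ± 220.8 CPM at R1 and 772.3 ± 103.5 CPM at R7. Soleus was at 2347 ± 493.1 CPM in the controls and 1200 ± 195.9 CPM at D3, and at R1 it had 1651 ± 632.5 CPM. None of the 6 was called between the muscles at R1 and all 6 were called lower in EDL at R7 (all peaks 7.32%), with log2 differences from -1.82 to -1.53 (edgeR). The run of 5 at chr3:55909724-55923326 (plus strand) resembled that of chromosome 4 in soleus, with 2648 ± 1223 CPM at R1 against 602.0 ± 142.0 CPM in the controls, and all 5 were called lower in EDL at R1 (all peaks 17.7%). In the run of 5 of 6 peaks at chr10:82757458-82759968 (plus strand), the unloaded level was that of D1, where the sum ranged from 4.88 to 150.2 CPM among animals. At D3 and D7 it was 0.324 to 1.69 CPM, against 1.03 to 17.8 CPM in the controls.

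On chromosome 17, 52 of 319 peaks were members (16.3%), and on the other chromosomes with members 5.93% to 11.65% were. A window of it, whose members spanned chr17:43616154-44841493, was singled out after its values were seen. The window, which was wider than that span, held 44 peaks. Of these, 17 were members, 10 on the plus and 7 on the minus strand. Their summed EDL level was 58.8 to 72.1 CPM in the controls and 68.4 to 248.7 CPM in unloading. In EDL at R3 it was 2225 CPM in animal 4 and 67.6 and 145.7 CPM in animals 5 and 16, and the library of animal 4 was the highest of the R3 libraries at all 17 peaks. The median ratio to control at R3 was 13.5, and 1.46 without that library. In soleus the sums at R7 were 2120, 720.6 and 77.0 CPM, with the high value in animal 12. The median soleus ratio at R7 was 6.42, and 2.635 without that library. At R3 soleus had 1052, 420.4 and 1151 CPM, all above the controls of 70.6, 130.0 and 255.0 CPM. Of the 17 members, 2 were called lower in EDL than in soleus at R1 (edgeR; all peaks 17.7%) and 5 at R7 (all peaks 7.32%). At R3 none was called between the muscles, with log2 differences of -0.56 to 0.61, and 1 was called higher in soleus at R7 than at R1 (all peaks 5.82%).

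**Figure D5:**
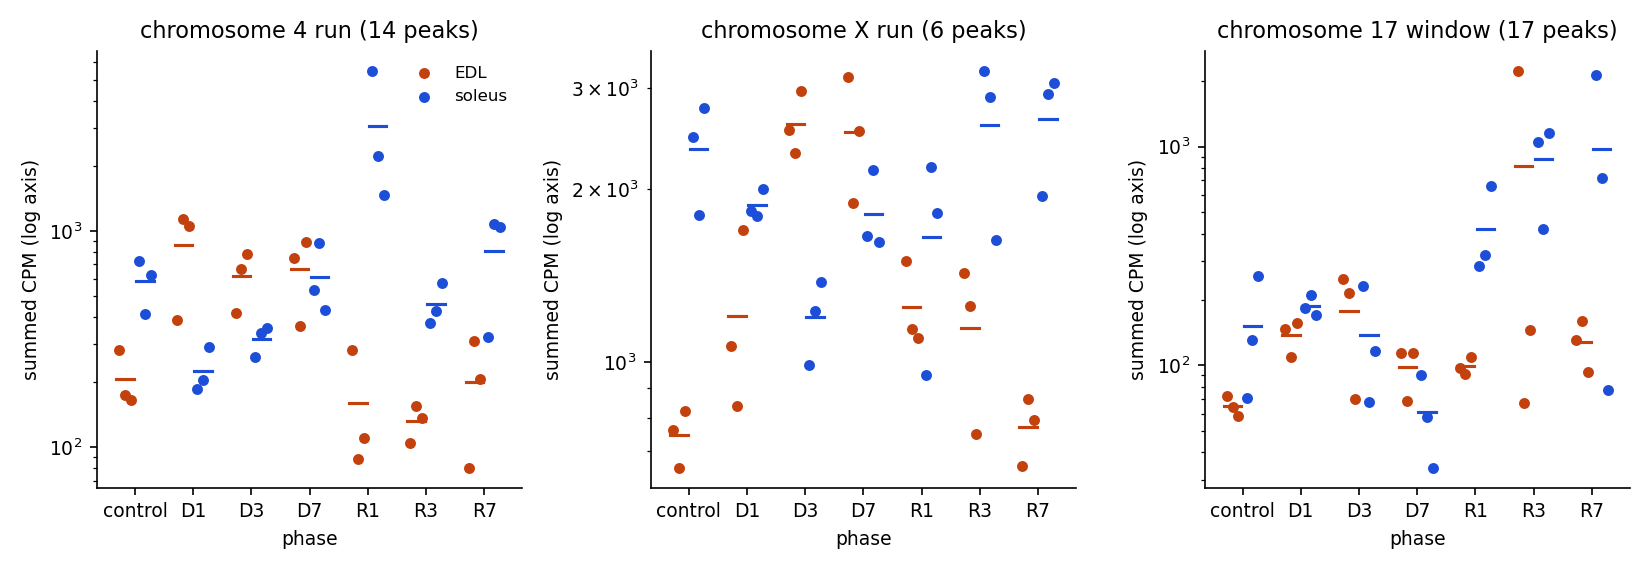
Summed CPM per library (log axis) of the members of the chromosome 4 run (14 peaks), the chromosome X run (6 peaks) and the chromosome 17 window (17 peaks), EDL in orange and soleus in blue, bars at group means. The chromosome 4 run is high in unloaded EDL and in soleus at R1, the chromosome X run is high in EDL and low in soleus at D3, and the chromosome 17 window is high in 1 EDL library at R3 (2225 CPM) and in soleus at R3, with soleus at R7 spread from 77.0 to 2120 CPM.

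The members were described by width, strand and start position as well. Their median width was 217 nt, against 207 nt over all peaks, and 118 (14.6%) were at least 500 nt wide, against 10.8%. Narrow peaks of at most 100 nt numbered 107 (13.2%; all peaks 13.6%), and 50.25% of members lay on the plus strand (all peaks 49.3%). Of the 523 members with at least 50 tags in both control and unloaded EDL, 400 (76.5%) had the same most used start position in both, close to 78.35% of all such peaks. In these 523 members the most used position held a median of 26.2% of the tags in control EDL and 26.2% in unloaded EDL. At the leading position alone, 412 of the 810 members had an unloaded ratio of at least 1.5. The 1 CPM added to both means lowers the ratio more at a single position, where levels are lower. The count therefore does not show that the other members lacked a rise there. Of the 773 members with at least 50 tags in both unloaded EDL and soleus at R1, 624 (80.7%; all peaks 79.2%) had the same most used position in these groups.

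Peaks that were higher in both unloaded muscles numbered 633 and had higher ratios than the members in recovering EDL. They had a rise in EDL of at least 1.5 and in soleus of at least 25%, inside the same control limits. Their median EDL ratio was 1.76 in unloading, near the members' 1.71, and 1.69, 1.69 and 1.52 at R1, R3 and R7, above the members' 1.39, 1.45 and 1.35. In soleus their medians at R1, R3 and R7 were 1.997, 1.72 and 1.46 and the members' 2.05, 1.45 and 1.39. Their median difference between the controls, EDL minus soleus, was -0.56 on the log2(CPM + 1) scale, compared with -0.89 for the members. These lists were chosen on the same libraries, and no test of the difference between them was made.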

How the data were processed

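CAGE libraries of both muscles of 21 rats were analysed. Per the study's methods, reads had been trimmed with Trimmomatic, mapped with STAR to Rnor_6.0, with up to 20 loci allowed per read, and aggregated by PromoterPipeline. The submitters' processing notes instead name Trimmomatic 0.38, BWA and HISAT2, and which aligner made the deposited counts is not settled here. The authors deposited raw counts of rescued tags at single positions and in 9971 peaks, and 42 normalized columns that were not used. CPM and ratios were computed from the counts without the mitochondrial peaks. Recovery libraries were tested by edgeR 4.0.16 under R 4.3.3 (filterByExpr, TMM, quasi-likelihood, 6 groups in 1 fit; median biological coefficient of variation 0.324), and DESeq2 1.42.0 was an alternative. The test was also run on counts simulated from its fit to these data, and nothing is read from that here. Deviations of both muscles of the same rat, paired by the animal number in the labels, correlated with r of -0.142 to 0.498 (over 0.1 in 7 of 9 rats). Members, lists and named peaks were chosen with earlier results of these data known: the 8 largest rises and the 8 highest levels in EDL, the first 3 calls by adjusted p in each direction, the 5 highest and 5 lowest recovery ratios, and the peaks nearest the limits. Rises and recovery ratios required 10 CPM. Gene lists were not used.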

Additional observations from a re-analysis of the deposited data

Results flagged for a closer look

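A change between recovery phases that differed between the muscles, by the interaction term, was found in 49 members for R3 against R1 and in 66 for R7 against R1. For R3 these were 45 lower (5.57%; all peaks 1.88%) and 4 higher (0.495%; all peaks 0.665%), and for R7 47 lower (5.82%; all peaks 2.67%) and 19 higher (2.35%; all peaks 2.37%). With lane as a term the lower calls were 11 (1.36%; all peaks 0.343%) and 30 (3.71%; all peaks 1.63%) and the higher ones 1 (0.124%; all peaks 0.111%) and 14 (1.73%; all peaks 1.72%). With single libraries left out the lower calls went down to 18 (2.23%; all peaks 0.7045%) and 23 (2.85%; all peaks 1.41%). The lower calls with the smallest adjusted p included peaks with a high soleus level at R1. At chr6:135112787-135113023 soleus had means of 1632 CPM at R1 and 39.3 CPM at R3 and EDL had 16.4 and 13.4 CPM, a difference of -5.00 ± 0.68 (log2, SE; adjusted p from edgeR 1.95e-03). At chr6:60151359-60151530 the difference for R7 against R1 was -5.16 ± 0.54 (adjusted p from edgeR 1.085e-04), and at chr3:147608792-147609276, with 530.1 CPM at R1 and 15.0 CPM at R7 in soleus and 9.46 and 8.49 CPM in EDL, it was -4.68 ± 0.71. In the other direction chr10:53711560-53712069 differed by 4.51 ± 0.81 for R3 and 5.15 ± 0.81 for R7, with EDL means of 120.6 CPM at R1, 62.8 CPM at R3 and 56.0 CPM at R7 and soleus means of 1.90, 22.7 and 26.2 CPM.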

How the results depend on the processing

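The number of members was 810 and, under other scalings, pseudocounts, level limits or the median of the unloaded libraries, 614 to 920, of which 558 to 788 were members in the main list too. Leaving out single libraries gave 670 (without soleus control 7) to 1161 (without EDL control 6), so which peaks belong depends on the controls. At the leading position alone, where the added 1 CPM weighs more, 412 met the EDL limit. TMM lowered the median ratio to 1.23 in EDL at R7 and 1.68 in soleus at R1. Without single libraries the EDL medians ranged over 1.23 to 1.52 (R1), 1.26 to 1.54 (R3) and 1.31 to 1.47 (R7), and the soleus ones over 1.94 to 2.24, 1.35 to 1.498 and 1.14 to 1.47.

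For EDL against soleus, column totals without TMM gave 17 higher calls (2.10%; all peaks 9.0%) at R1 and 116 lower (14.4%; all peaks 6.63%) at R3. At R3 the lower calls were 83 (10.25%; all peaks 5.54%) in the fit of all 42 libraries and 33 (4.08%; all peaks 3.87%) with lane as a term. DESeq2 gave 14 higher (1.73%; all peaks 6.99%). With single libraries left out, the lower calls were 263 to 331, 28 to 120 and 116 to 215 at R1, R3 and R7, and the higher calls 20 to 36, 6 to 13 and 10 to 15. Over all peaks the lower shares in these refits were 14.5% to 18.4%, 3.38% to 6.165% and 5.14% to 8.54%. The higher shares were 10.9% to 14.8%, 5.11% to 6.86% and 6.18% to 8.57%. With the animal as a block, which pairs both muscles of a rat, 334 (41.3%; all peaks 18.6%), 67 (8.29%; all peaks 4.86%) and 169 (20.9%; all peaks 6.87%) were lower. Higher in that fit were 26 (3.22%; all peaks 13.4%), 7 (0.866%; all peaks 6.20%) and 12 (1.485%; all peaks 7.63%). For the interaction 46 (5.69%; all peaks 1.985%) and 54 (6.68%; all peaks 3.31%) were lower and 2 (0.2475%; all peaks 0.796%) and 19 (2.35%; all peaks 2.62%) higher. Between EDL phases, DESeq2 called 3 (R3 against R1), 1 (R7 against R3) and 7 (R7 against R1), the fit of 42 libraries 1 in the first, column totals 1 in the last, and single omissions 0 to 1. The shares of all peaks in these EDL fits are not given here, so nothing about the members is read from them.

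In soleus, lane as a term left 37 lower and 11 higher from R1 to R3 and 5 and 4 from R1 to R7, and column totals gave 32 higher from R1 to R7. The shares of all peaks for these fits are given above. Single omissions gave 86 to 147 and 8 to 22 for R3 against R1, 90 to 137 and 31 to 60 for R7 against R1, and 0 to 3 for R7 against R3. Over all peaks these refits gave 5.74% to 9.34% and 2.285% to 3.61%, then 6.32% to 9.785% and 3.97% to 7.51%. For R7 against R3 no share of all peaks is given here, so nothing is read from those counts. For the interaction at R3, DESeq2 gave 81 of 810 lower (all peaks 4.504%) and 6 higher (0.7407%; all peaks 1.936%). The 42 libraries gave 69 lower (8.519%; all peaks 3.58%) and 7 higher (0.8642%; all peaks 0.9453%). Lane gave 11 and 1, and single omissions 18 to 50 (all peaks 0.7045% to 2.254%) and 1 to 4 (all peaks 0.1609% to 0.9855%). At R7, DESeq2 gave 57 lower (7.037%; all peaks 4.735%) and 36 higher (4.444%; all peaks 4.002%). The 42 libraries gave 54 lower (6.667%; all peaks 4.304%) and 32 higher (3.951%; all peaks 3.097%). Lane gave 30 lower, and single omissions 23 to 50 (all peaks 1.329% to 3.309%) and 9 to 24 (all peaks 1.167% to 3.238%). The shares for the lane fits are given above. The cause was not tested. Of 738 refits of the named peaks, 735 kept direction and call and 3, all with lane as a term, lost the call.

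With 3 animals a group, shallow EDL libraries at D1 and in recovery and no gene names, small rises of single members carry little weight. In EDL the steps from control to unloading and from R1 to later recovery cannot be told apart from those of lane. P-values of the main fit rest on the spread between libraries within groups, and that fit did not pair both muscles of a rat.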
